A study of Mus musculus with 54 samples.

Results

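The change from epiblast-like cells (EpiLC) to day 2 primordial germ cell-like cells (PGCLC) was described here in the mouse line labelled Ovol3KO. It was read from 2 PGCLC and 2 EpiLC libraries of that line, 4 of the 54 mRNA sequencing libraries of the series. Primordial germ cells are the founders of eggs and sperm and arise in the early embryo from epiblast cells exposed to BMP and WNT signals. In culture, embryonic stem cells (ESC) are first brought to the EpiLC state, which resembles the epiblast before gastrulation, and then to PGCLC. The same signals also lead epiblast cells into the primitive streak and mesoderm, so germ cell and mesoderm genes are usually induced side by side in this step. Ovol3 belongs to a family of zinc finger transcription factors with Ovol1 and Ovol2, whose members are known for holding cells in an epithelial state.

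The series followed 9 lines through ESC, EpiLC and day 2 PGCLC, with 2 libraries for each of 27 groups. The groups used here were PGCLC, EpiLC and ESC labelled Ovol3 mutant (Ovol3KO), PGCLC and EpiLC labelled Ovol1KO, and PGCLC, EpiLC and ESC labelled wild type (WT). All of them carry the strain label C57BL/6 X 129/SvJ. How Ovol3 was altered, whether the line is 1 clone, which agents were given in culture and whether PGCLC were sorted from the aggregates is stated nowhere in the labels. They also do not say that the 2 libraries of a group came from separate cultures, so the spread behind each p-value may be technical. Depth was 17.25 and 2.58 M reads in Ovol3KO PGCLC, 14.63 and 13.05 M in Ovol3KO EpiLC and 4.79 and 2.72 M in Ovol3KO ESC. It was 5.22 and 6.94 M in WT PGCLC, 3.62 and 17.49 M in WT EpiLC and 2.37 to 6.97 M in the 4 Ovol1KO libraries. Levels are TPM, each gene's share of the library's transcripts on a scale with a fixed total, given for replicate 1 and then replicate 2. Differences are log2 fold changes of TPM + 1 with their standard error (SE), from limma with n = 2 libraries a group. A gene was called, and is said to have risen or fallen, when its Benjamini-Hochberg adjusted p was under 0.05 and its log2 fold change was at least 1 in size.

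Ovol3 itself was detected in every library of both lines. It had 9.84 and 7.25 TPM in Ovol3KO PGCLC, against 5.8 and 5.66 TPM in Ovol3KO EpiLC. In WT it had 9.39 and 9.66 TPM in PGCLC and 13 and 10.4 TPM in EpiLC. The Ovol3KO libraries lay below the WT libraries in EpiLC and overlapped them in PGCLC. A gene-level TPM cannot show a change within the transcript, so this level does not check the label, and Ovol3KO is used throughout as the name of the label. The difference between PGCLC and EpiLC in Ovol3KO was 0.49 ± 0.21 on the log2 scale and was not called (adjusted p = 0.0519). Among its relatives, Ovol1 had 2.16 and 2.24 TPM in Ovol3KO PGCLC, against 1.2 and 0.274 TPM in EpiLC, a log2 difference of 0.94 ± 0.26 that missed the size threshold, and passed it at 1.33 without EpiLC replicate 1 and at 1.84 in a fit on recovered reads. Ovol2 had 7.22 and 11.1 TPM in PGCLC and 16 and 16.6 TPM in EpiLC, and its difference of -0.79 ± 0.27 was not called either, though it was at -1.07 in the fit on recovered reads and without PGCLC replicate 2.

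The stage labels were checked against marker genes. The summed level of 7 PGCLC markers was 370.1 to 378.8 TPM in Ovol3KO PGCLC, against 45 to 56.9 TPM in EpiLC, and none of the 7 was at 0. The sum of 6 EpiLC markers was 420.7 to 532.2 TPM in Ovol3KO PGCLC, against 1461 to 1569 TPM in EpiLC. Both marker sums moved the way the stage labels say. The PGCLC marker sum was also 361.6 to 373.6 TPM in Ovol3KO ESC, so it does not tell PGCLC from ESC. In WT it was 396.2 to 414.3 TPM in ESC and 166.8 to 176.5 TPM in PGCLC. Mesoderm markers (6 genes) summed to 61.7 to 158.8 TPM in Ovol3KO PGCLC, most of it from the gene T, and are described with the streak genes. Markers of endoderm, neural, trophoblast and blood cells were low in Ovol3KO PGCLC. The 5 endoderm markers summed to 1.9 to 2.86 TPM, with 1 of them at 0 in both libraries. The 2 neural markers summed to 1.38 to 4.27 TPM. The 3 trophoblast markers summed to 2.36 to 2.95 TPM with 1 at 0. The 3 blood markers summed to 0.427 to 0.896 TPM with 1 at 0. In Ovol3KO EpiLC the same sums were 1.1 to 1.13 TPM, 3.36 to 3.44 TPM, 0.995 to 1.01 TPM and 1.91 to 1.94 TPM. Fibroblast or feeder markers (5 genes) summed to 8.2 to 8.67 TPM in Ovol3KO PGCLC and 31.7 to 36.9 TPM in Ovol3KO EpiLC. Most of both sums was Thy1, so the move with the stage was chiefly that of this gene. Over 14 fibroblast and feeder genes, 2 rose and 2 fell in Ovol3KO, with a median of 0.31. In WT the 5 markers summed to 15.7 to 22.8 TPM in PGCLC and 35.7 to 39.3 TPM in EpiLC. The part of such cells in the results was not tested. In bulk RNA, fewer cells of a type and less RNA per cell cannot be told apart.

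Of 14416 genes tested, 1849 were called between PGCLC and EpiLC in Ovol3KO, which is 12.8%. Of these 874 rose (6.06% of the tested genes) and 975 fell (6.76%). The fit on recovered reads turned that balance, with 1652 rises and 1428 falls, as did a pseudocount of 0.25, with 1286 and 1266. In WT 3043 genes were called between PGCLC and EpiLC (21.1%), 1944 higher (13.5%) and 1099 lower (7.62%). Calls that were higher were 63.9% of all WT calls and 47.7% after quantile scaling. The transition of Ovol3KO was then set against that of WT in 1 test of the difference of the differences. That test called 2319 genes (16.1%), with 707 more positive in Ovol3KO (4.9%) and 1612 more negative (11.2%). Quantile scaling turned this split to 45.5% more positive calls, from 30.5% as deposited. The median over all tested genes was 0.03 in the Ovol3KO transition, 0.15 in the WT transition and -0.12 in the difference between them. Quantile scaling brought these medians to 0.01, -0.01 and 0.03, and the list medians below are read against them.

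For genes called different between the transitions, most of the gap between the lines lay in PGCLC. For genes called more positive in Ovol3KO, the median of Ovol3KO minus WT was 1.17 log2 units in PGCLC and -0.34 in EpiLC. For genes called more negative it was -1.19 in PGCLC and 0.31 in EpiLC, and over all tested genes -0.12 and 0.00. These medians are descriptions, since the same values chose the genes. EpiLC of the 2 lines also differed. The sum of 6 ESC markers was 131 to 178.9 TPM in Ovol3KO EpiLC and 63.4 to 70.7 TPM in WT EpiLC. The EpiLC marker sum was 1461.3 to 1569 TPM in Ovol3KO EpiLC and 2000.5 to 2067.9 TPM in WT EpiLC. Over 21 naive pluripotency genes the median of Ovol3KO minus WT was 0.82 in EpiLC and 2.16 in PGCLC. Over 31 streak genes it was 0.00 in EpiLC. The plot of both transitions shows most streak and mesoderm genes well below the line of equal change and the later germ line genes above it. The germ cell specification genes lie on both sides of it. Of 20 tested, 3 were called more positive and 3 more negative in Ovol3KO, with a median difference of -0.09.

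**Figure D1:**
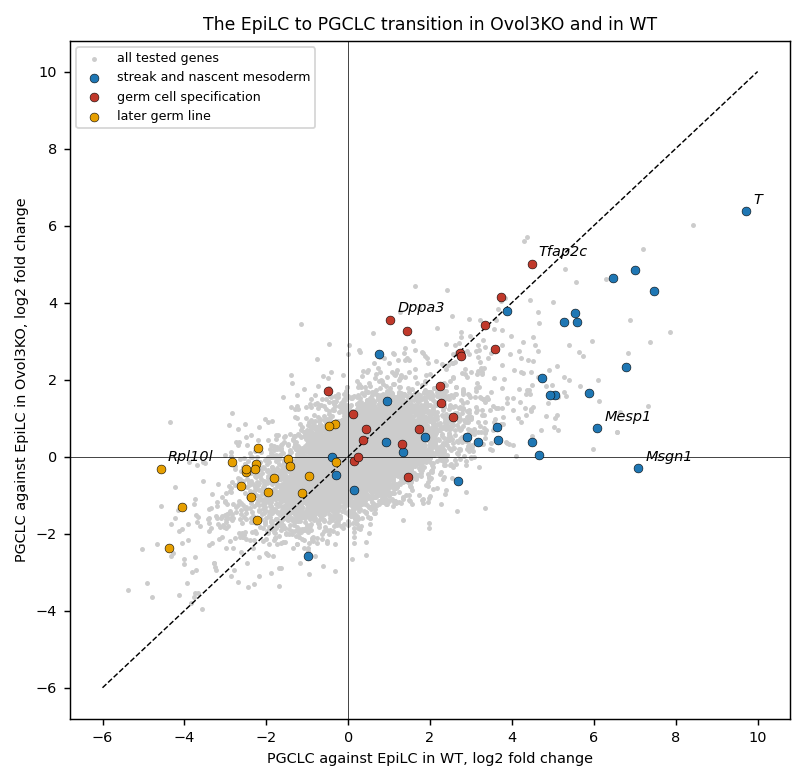
Each point is a gene, placed by its log2 fold change between PGCLC and EpiLC in WT (x axis) and in Ovol3KO (y axis); grey points are all 14416 tested genes, and blue, red and orange points are the lists of streak and nascent mesoderm, germ cell specification and later germ line genes. The dashed line marks equal change, and T lies far below it with 6.38 in Ovol3KO and 9.71 in WT.

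The core inducers of the germ cell fate rose in the Ovol3KO transition. Prdm1, Prdm14 and Tfap2c encode the transcription factors that start the mouse germ cell programme, Nanos3 encodes an RNA-binding protein needed for germ cell survival, and Dppa3 encodes the maternal factor Stella. Of 20 germ cell specification genes tested, 13 rose and 0 fell, with a median of 1.54 against 0.03 for all tested genes. In WT 14 rose and 0 fell, with a median of 1.59. For Prdm1, Prdm14, Tfap2c and Nanos3 the difference between the 2 transitions was not called.

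Prdm1, the repressor that silences somatic genes in germ cell precursors, had 18.2 and 19.4 TPM in Ovol3KO PGCLC, against 1.67 and 2.04 TPM in EpiLC (log2 difference 2.79 ± 0.17, adjusted p = 2.18e-15). In WT it had 30.3 and 25.9 TPM in PGCLC and 1.68 and 1.2 TPM in EpiLC. Its transition in Ovol3KO differed from that in WT by -0.78 ± 0.25 on the log2 scale, under the size threshold (adjusted p = 0.011), and by -1.04 with a call in the fit on recovered reads. Prdm14, a factor of both naive pluripotency and the germ line, had 19.6 and 16 TPM in Ovol3KO PGCLC and 0 and 0.122 TPM in EpiLC, a rise of 4.14 ± 0.15. In WT PGCLC it had 12.5 and 12.7 TPM, below both Ovol3KO libraries, and the difference between the transitions of 0.41 ± 0.21 was not called (adjusted p = 0.12). Tfap2c, an activator that acts downstream of Prdm1, reached 102 and 103 TPM in Ovol3KO PGCLC, against 2.54 and 1.91 TPM in EpiLC (log2 difference 5.01 ± 0.22). WT PGCLC had 44.1 and 43.7 TPM and WT EpiLC 0.38 and 1.92 TPM. Both Ovol3KO PGCLC libraries held more Tfap2c than either WT PGCLC library, while the transitions differed by 0.53 ± 0.32 (adjusted p = 0.195), which was not called. That value was 1.07 with a call without WT EpiLC replicate 1 and -0.01 without WT EpiLC replicate 2. Against Ovol1KO the Tfap2c transition was more positive by 1.23 ± 0.32 and was called, though not without Ovol1KO EpiLC replicate 2, at 0.90.

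Nanos3 had 15.5 and 11.1 TPM in Ovol3KO PGCLC, against 0.792 and 1.96 TPM in EpiLC, a rise of 2.62 ± 0.46. WT PGCLC held 9.81 and 9.05 TPM and WT EpiLC 0.799 and 0.329 TPM, and the transitions differed by -0.13 ± 0.64, with an SE larger than the value. Dppa3 went further in Ovol3KO than in WT. It had 183 and 173 TPM in Ovol3KO PGCLC, against 19.3 and 10.3 TPM in EpiLC, and in WT it had 18 and 20.4 TPM in PGCLC and 7.13 and 11 TPM in EpiLC. The Ovol3KO PGCLC libraries were far above all others of these 4 groups, and the difference between the transitions was 2.54 ± 0.46 (adjusted p = 4.1e-05). Tcl1, a co-activator of AKT, and Sox15, an HMG-box factor, were also called more positive in Ovol3KO than in WT, by 1.80 ± 0.35 and 2.20 ± 0.44, and Tcl1 was not called in the fit on recovered reads, at 1.41. Another 3 list members were called more negative. Tdrd5, a Tudor protein of the germ line, had 14 and 12.2 TPM in Ovol3KO PGCLC and 19.7 and 18.6 TPM in EpiLC, against 34.7 and 40.2 TPM in WT PGCLC and 13.3 and 12.4 TPM in WT EpiLC. Fut4, the enzyme behind the SSEA-1 surface sugar, rose by 1.02 ± 0.23 in Ovol3KO and by 2.56 ± 0.23 in WT, and its call in Ovol3KO was lost at 0.86 without EpiLC replicate 1 and at 0.78 without PGCLC replicate 2. Ifitm3, an interferon-induced membrane protein long used to mark early germ cells, differed by 0.72 ± 0.09 in Ovol3KO and rose by 1.72 ± 0.09 in WT. Kit, the receptor that later germ cells need, had 19.3 and 22.8 TPM in Ovol3KO PGCLC and 14.5 and 10.5 TPM in EpiLC and was not called.

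**Figure D2:**
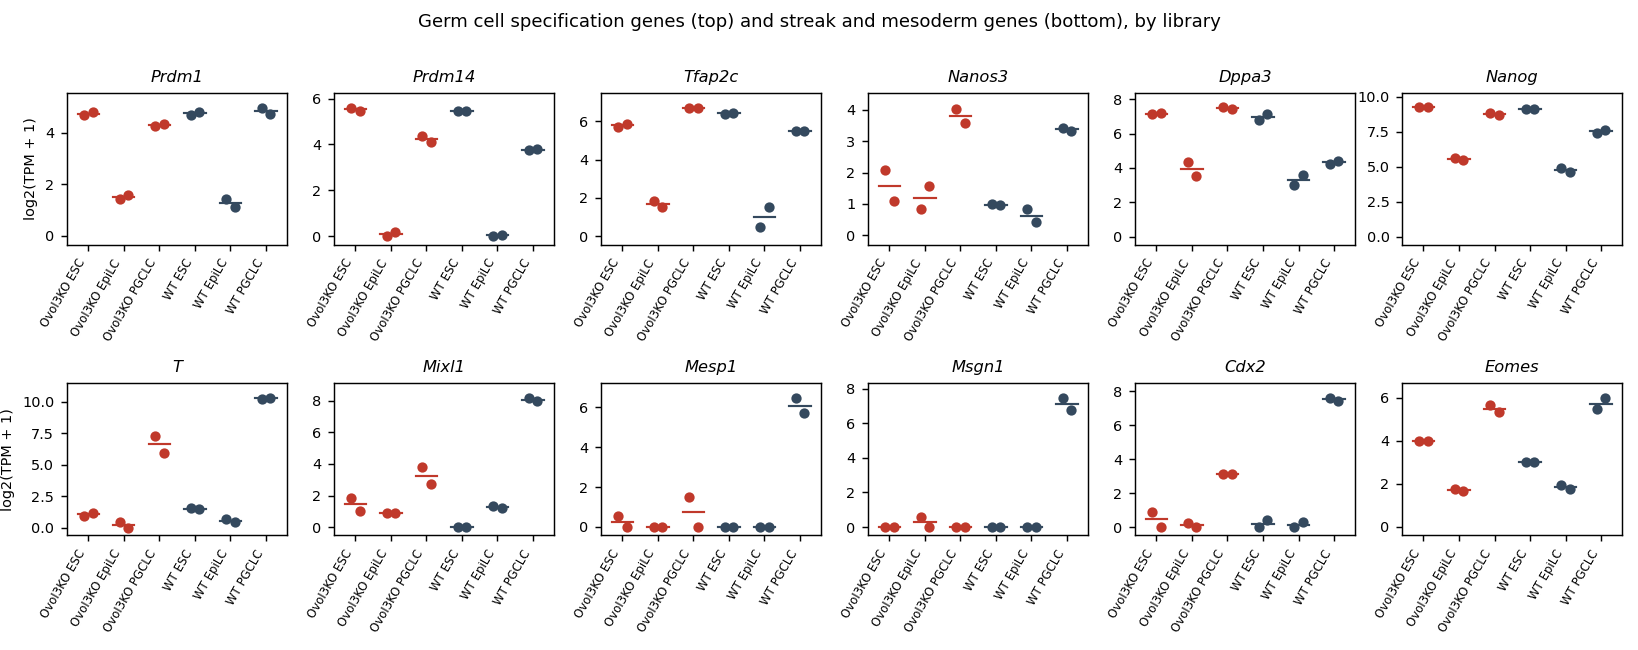
Levels of 6 germ cell and pluripotency genes (top row) and 6 streak and mesoderm genes (bottom row) as log2(TPM + 1) in ESC, EpiLC and PGCLC of Ovol3KO (red) and of WT (dark grey); points are libraries and lines the mean of 2 libraries. Prdm1, Prdm14, Tfap2c and Nanos3 are high in PGCLC of both lines, while T, Mixl1 and Cdx2 are lower in Ovol3KO PGCLC than in WT PGCLC and Msgn1 is at 0 in Ovol3KO PGCLC.

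The plot by stage and line sets these inducers beside the mesoderm genes described further on. In its top row both Ovol3KO PGCLC libraries are above both WT PGCLC libraries for Prdm14, Tfap2c, Nanos3, Dppa3 and Nanog, and below them for Prdm1.

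Genes of the later germ line behaved differently in the 2 lines. These genes act in meiosis, in piRNA production or in germ cell differentiation, and several are already active at a low level in EpiLC. Of 21 tested, 0 rose and 4 fell in Ovol3KO, with a median of -0.33. That median was -0.58 on recovered reads and without EpiLC replicate 1, -0.51 without PGCLC replicate 2 and -0.15 without PGCLC replicate 1. In WT 0 rose and 17 fell, with a median of -2.22, or -3.63 on recovered reads. The difference between the transitions was called for 17 of 21 genes, all more positive in Ovol3KO, against 4.9% of all tested genes called in that direction, and its median was 1.40, or 2.34 with a pseudocount of 0.25 and 3.23 on recovered reads. Against the Ovol1KO transition, which shares the Ovol3KO libraries, 11 of 21 were called more positive and 0 more negative. The median of Ovol3KO minus WT over the list was 1.32 log2 units in PGCLC and -0.22 in EpiLC.

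The later germ line list was also searched for sequence words in its promoters, taken from RefSeq (GRCm38.p6) as the 250 bases before and 50 bases after a gene's start. The E-box CACGTG stood in 12 of 18 promoters of the list (66.7%), against 1114 of 10928 promoters of all tested genes (10.2%). Of the 14 promoters whose genes were called in the difference between the transitions, 10 held it, a share near that of the whole list. Sycp3 and Brdt held it and were not called, while Rpl10l and Dazl were called without it. The word thus does not set called genes apart. Of the 10 promoters 3 are printed, because they carry the word in genes whose fall in WT was called larger than their change in Ovol3KO. They are shown 5′ to 3′ in the sense of the gene, with CACGTG in capitals: Hormad1 at chr3:95559427-95559726 (plus strand), where the words begin 57 and 20 bases before the start, Fkbp6 at chr5:135349995-135350294 (minus strand), where they begin 101 and 37 bases before it, and Ddx4 at chr13:112652261-112652560 (minus strand), where the word begins 29 bases before it. Hormad1 and Fkbp6 have 2 listed starts each, and the first was used.
Hormad1: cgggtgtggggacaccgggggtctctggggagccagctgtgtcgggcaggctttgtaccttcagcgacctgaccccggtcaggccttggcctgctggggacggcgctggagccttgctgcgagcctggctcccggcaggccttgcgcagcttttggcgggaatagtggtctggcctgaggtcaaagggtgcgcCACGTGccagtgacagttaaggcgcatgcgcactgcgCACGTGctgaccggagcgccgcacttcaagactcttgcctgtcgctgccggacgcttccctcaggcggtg
Fkbp6: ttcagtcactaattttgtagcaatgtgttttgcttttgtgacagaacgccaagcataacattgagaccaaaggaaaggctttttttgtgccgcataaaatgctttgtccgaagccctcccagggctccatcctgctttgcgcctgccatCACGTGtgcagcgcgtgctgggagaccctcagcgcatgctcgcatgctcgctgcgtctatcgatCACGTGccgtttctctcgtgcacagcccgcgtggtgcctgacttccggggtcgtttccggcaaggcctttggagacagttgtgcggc
Ddx4: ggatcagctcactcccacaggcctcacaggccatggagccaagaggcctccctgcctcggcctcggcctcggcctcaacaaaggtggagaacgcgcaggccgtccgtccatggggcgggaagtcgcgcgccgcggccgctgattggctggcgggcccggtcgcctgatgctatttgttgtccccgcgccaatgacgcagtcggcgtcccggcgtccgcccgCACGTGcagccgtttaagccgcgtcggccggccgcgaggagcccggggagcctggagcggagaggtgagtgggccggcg
A match describes the letters in this window and says nothing about what binds there.

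Hormad1, a protein of the meiotic chromosome axis, had 5.15 and 4.66 TPM in Ovol3KO PGCLC, against 14.5 and 13 TPM in EpiLC, and fell by 1.32 on the log2 scale. In WT it had 0 and 0.328 TPM in PGCLC and 18.8 and 18 TPM in EpiLC. It was near 0 in WT PGCLC and not in Ovol3KO PGCLC, and the transitions differed by 2.76 ± 0.35 (adjusted p = 8.7e-08). Fkbp6, a piRNA pathway protein, was scarce in Ovol3KO at both stages, with 0.686 and 1.39 TPM in PGCLC and 1.48 and 0.996 TPM in EpiLC, while WT had 0.72 and 0.359 TPM in PGCLC and 10.6 and 9.25 TPM in EpiLC. Its difference between the transitions, 2.69 ± 0.40, thus rests on the EpiLC level of WT. Ddx4, the germ cell RNA helicase Vasa, had 13.6 and 18 TPM in Ovol3KO PGCLC and 17.4 and 15.5 TPM in EpiLC, against 5.32 and 3.2 TPM in WT PGCLC and 13.5 and 13 TPM in WT EpiLC. In Ovol3KO the libraries of both stages overlapped, and in WT Ddx4 fell by 1.47.

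Dazl, an RNA-binding protein that licenses germ cells, had 2.92 and 4.66 TPM in Ovol3KO PGCLC and 4.1 and 6.59 TPM in EpiLC, against 0.284 and 0.212 TPM in WT PGCLC and 6.1 and 6 TPM in WT EpiLC. Dmrt1, a factor of testicular germ cells, had 15.7 and 21.7 TPM in Ovol3KO PGCLC and 18.9 and 13 TPM in EpiLC, and the WT libraries had 3.93 and 6.85 TPM and 31.1 and 24.8 TPM. Both were retained in Ovol3KO PGCLC and called more positive than in WT, by 2.10 ± 0.41 and 2.43 ± 0.40. Mael and Piwil2, both of the piRNA pathway, fell in Ovol3KO with log2 differences of -2.36 and -1.06, and Sycp3, of the synaptonemal complex, with -1.65. Mael had 1.95 and 3.68 TPM in Ovol3KO PGCLC and 19.7 and 16.6 TPM in EpiLC, against 0.817 and 0 TPM in WT PGCLC and 22.2 and 32.5 TPM in WT EpiLC. The call of Piwil2 was lost without EpiLC replicate 1, at -0.86. Rpl10l, a ribosomal protein gene used in male meiosis, is the member of the list with the largest difference between the transitions (4.28 ± 0.42). It had 20.1 and 27.8 TPM in Ovol3KO PGCLC and 28.7 and 30.4 TPM in EpiLC, against 1.65 and 0 TPM in WT PGCLC and 44.4 and 32.5 TPM in WT EpiLC.

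**Figure D3:**
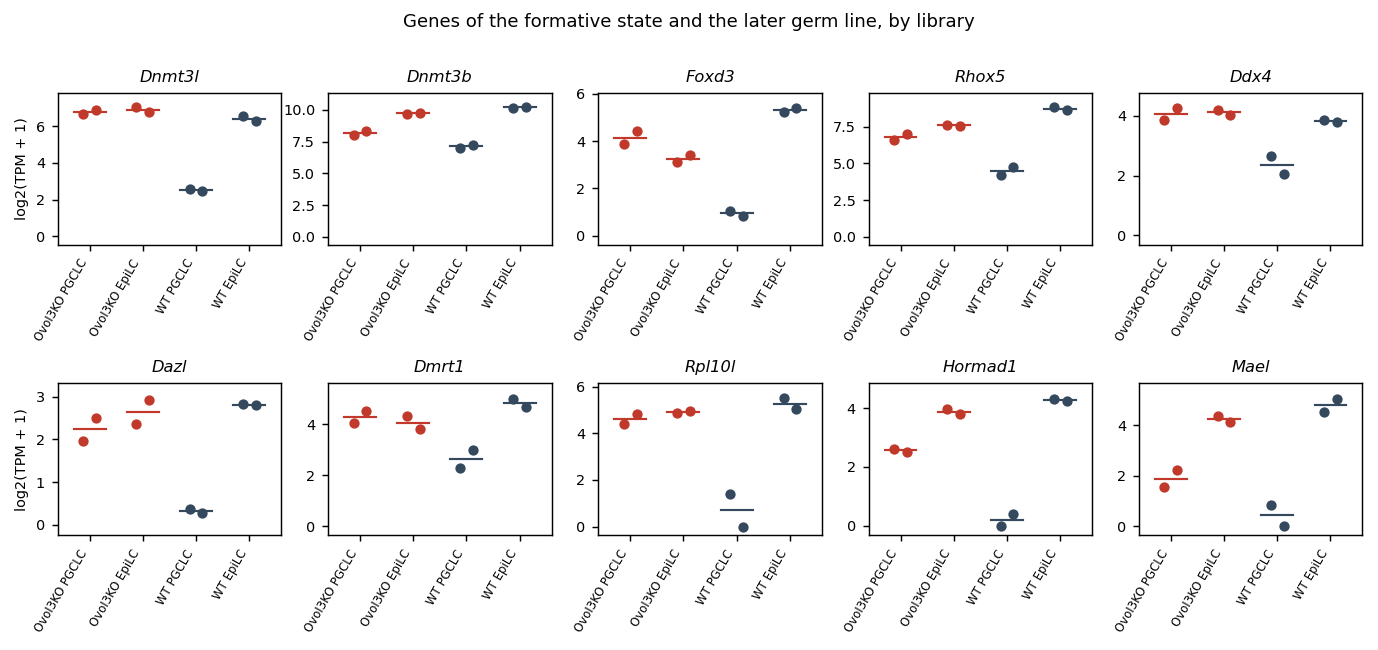
Levels of 10 genes of the formative state and the later germ line as log2(TPM + 1) in PGCLC and EpiLC of Ovol3KO (red) and WT (dark grey); points are libraries and lines the mean of 2 libraries. Dnmt3l, Ddx4, Dmrt1 and Rpl10l are at a like level in both stages of Ovol3KO and lower in WT PGCLC than in WT EpiLC.

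The plot of the retained genes shows the same pattern for Dnmt3l, the partner of the de novo DNA methyltransferases. Dnmt3l had 99.2 and 117 TPM in Ovol3KO PGCLC and 129 and 109.7 TPM in EpiLC, and the ranges overlapped. In WT it fell to 5.05 and 4.48 TPM in PGCLC, against 92.1 and 75.8 TPM in EpiLC, and the transitions differed by 3.73 ± 0.27 (adjusted p = 4.95e-13). Dnmt3b, a de novo methyltransferase, fell in both lines, to 255 and 328 TPM in Ovol3KO PGCLC against 831 and 863 TPM in EpiLC, and to 130.4 and 148 TPM in WT PGCLC against 1149 and 1198 TPM in EpiLC. The transitions differed by 1.52 ± 0.16, the Ovol3KO fall being the smaller. Dnmt3a, the other de novo enzyme, fell to a similar level in both, with 34.3 and 44.5 TPM in Ovol3KO PGCLC and 29.6 and 31.1 TPM in WT PGCLC, and the transitions differed by 0.30 ± 0.13, which was not called. Of 17 DNA methylation genes, 1 rose and 4 fell in Ovol3KO, with a median of -0.21, against 2 and 7 in WT. Tet2, which oxidises methylcytosine, rose by 1.88 ± 0.28, and Apobec1 and Gadd45a, both named in DNA demethylation, fell with log2 differences of -1.99 and -1.69. Of 22 histone methyltransferases and demethylases, 2 rose and 0 fell in Ovol3KO, the demethylases Kdm3a (1.66 ± 0.14) and Kdm3b (1.13 ± 0.12). Over all tested genes 6.06% rose in Ovol3KO. The 2 rises here and the 1 among DNA methylation genes are near that share and are no result about these lists.

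Naive pluripotency genes came back in Ovol3KO PGCLC, though for many not to the ESC level. Of 21 tested, 15 rose and 0 fell between PGCLC and EpiLC, with a median of 1.51, while in WT 12 rose and 5 fell, with a median of 1.37. The difference between the transitions was called more positive for 12 and more negative for 3. Relative to Ovol3KO ESC, 0 of the 21 were called higher in PGCLC and 11 lower, with a median of -1.16. That comparison of PGCLC with ESC called 2129 genes in all (14.8%), 1006 higher in PGCLC (6.98%) and 1123 lower (7.79%). More were higher than lower with a pseudocount of 0.25 (1573 and 1394) and on recovered reads (1444 and 1176).

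Klf2, a naive transcription factor, had 367 and 309 TPM in Ovol3KO ESC, 5.89 and 3.06 TPM in EpiLC and 291 and 261 TPM in PGCLC, a rise of 5.71 ± 0.24 over EpiLC. In WT PGCLC it had 98.4 and 119.5 TPM, below both Ovol3KO libraries, and the transitions differed by 1.33 ± 0.34, or by 0.95 with no call without Ovol3KO EpiLC replicate 2. Klf4 had 302 and 302 TPM in ESC, 4.37 and 3.81 TPM in EpiLC and 91.2 and 83.1 TPM in PGCLC of Ovol3KO. The PGCLC and ESC levels of Klf2 were not called different, while Klf4 was lower in PGCLC than in ESC (log2 difference -1.78 ± 0.22). Esrrb, an orphan nuclear receptor of the naive network, had 141 and 134 TPM in Ovol3KO PGCLC, against 80 and 48 TPM in EpiLC. Its log2 difference was 1.14 ± 0.21, and 0.77 with no call without EpiLC replicate 2. Esrrb was higher in Ovol3KO than in WT at both stages, since WT had 30.9 and 29.2 TPM in PGCLC and 10.7 and 11.3 TPM in EpiLC. Zfp42, the marker Rex1, had 86.6 and 78.6 TPM in Ovol3KO PGCLC and 60.8 and 53.2 TPM in EpiLC and was not called, while it fell in WT to 18.7 and 16.8 TPM in PGCLC against 38.5 and 38 TPM in EpiLC. Tbx3, a T-box factor used in both naive cells and mesoderm, rose less in Ovol3KO (4.61 ± 0.16) than in WT (6.29 ± 0.16).

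Core pluripotency genes held a higher course in Ovol3KO than in WT. Of 15 tested, 4 rose and 1 fell in Ovol3KO, with a median of 0.72, and 2 rose and 5 fell in WT, with a median of -0.26. The difference between the transitions was called more positive for 7 and more negative for 0. Pou5f1, the gene of OCT4, had 1844 and 1835 TPM in Ovol3KO PGCLC and 1908 and 1936 TPM in EpiLC, with no call. Sox2, its partner, had 304 and 338 TPM in Ovol3KO PGCLC, against 160.3 and 134 TPM in EpiLC, and WT had 84.4 and 89.1 TPM in PGCLC and 67.9 and 67.8 TPM in EpiLC. Its rise in Ovol3KO was 1.12 ± 0.15, and 0.99 without EpiLC replicate 2, just under the size threshold. Nanog, which can itself induce the germ cell programme in EpiLC, had 459 and 419 TPM in Ovol3KO PGCLC, against 48.4 and 43.8 TPM in EpiLC. WT PGCLC had 172 and 198 TPM and WT EpiLC 29.9 and 23.8 TPM. Nanog rose in both lines, by 3.23 ± 0.17 and 2.75 ± 0.17, and the difference of 0.48 ± 0.24 was not called. Sall4, a zinc finger factor of stem and germ cells, rose by 1.88 ± 0.09, and Tdgf1, the Nodal co-receptor Cripto, by 1.77 ± 0.11. Utf1, a chromatin factor of the epiblast, fell in both lines, with log2 differences of -1.52 in Ovol3KO and -3.71 in WT. Dppa2 and Dppa4, which share a DNA-binding domain, and Gdf3, a Nodal-related ligand, fell in WT and were not called in Ovol3KO, and the tests of the difference were called, at 3.40 ± 0.29, 2.46 ± 0.29 and 2.93 ± 0.24. Dppa2 had 146 and 144 TPM in Ovol3KO PGCLC and 81.2 and 94.6 TPM in EpiLC, against 20.2 and 17 TPM in WT PGCLC and 129 and 119 TPM in WT EpiLC.

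The formative epiblast programme was partly shut down. Of 26 formative genes, 4 rose and 9 fell in Ovol3KO, with a median of -0.51, and 5 rose and 15 fell in WT, with a median of -1.42. The 4 that rose in Ovol3KO were Wnt8a, Fgf8, Wnt3 and Fst, which are described below with the WNT, streak and Nodal genes. Against WT, the transition was called more positive for 7 and more negative for 4. Otx2, a homeobox factor that restrains the germ cell fate, fell to 16.7 and 18.5 TPM in Ovol3KO PGCLC, against 122 and 129.8 TPM in EpiLC, and to 6.29 and 9.87 TPM in WT PGCLC, against 79.7 and 90.9 TPM in EpiLC. Pou3f1, the gene of OCT6, fell to 11.4 and 20.5 TPM in Ovol3KO PGCLC, against 141 and 178 TPM in EpiLC. Both thus fell, and the Pou3f1 fall was smaller than in WT (difference 1.62 ± 0.28). Fgf5, the classical epiblast marker, had 17.6 and 18.5 TPM in Ovol3KO PGCLC and 29.8 and 42.9 TPM in EpiLC, a log2 difference of -0.95 ± 0.27 that missed the size threshold and passed it, at -1.20, without EpiLC replicate 1. In WT it fell to 6.73 and 11.7 TPM in PGCLC, against 79.9 and 75.2 TPM in EpiLC, and the transitions differed by 2.04 ± 0.38. Foxd3, a forkhead factor of the epiblast, gave the largest positive difference among genes of at least 10 TPM (5.25 ± 0.33, adjusted p = 1.54e-14). It had 13.7 and 20.2 TPM in Ovol3KO PGCLC and 7.61 and 9.63 TPM in EpiLC, against 1.07 and 0.795 TPM in WT PGCLC and 36.1 and 41.1 TPM in WT EpiLC. The lines were apart in both stages, in opposite directions. The homeobox gene Rhox5 (3.44 ± 0.28) and the zinc finger genes Rex2 (3.42 ± 0.31) and Zfp534 (3.75 ± 0.58) were among the other largest positive differences, with Eras (3.97 ± 0.56), a RAS-like gene of ESC, Enox1 (3.52 ± 0.40) and the fatty acid transporter Slc27a2 (3.49 ± 0.26). Rhox5 had 93.6 and 128 TPM in Ovol3KO PGCLC and 199 and 184 TPM in EpiLC, against 17.4 and 25.9 TPM in WT PGCLC and 455 and 389 TPM in WT EpiLC.

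Target genes of BMP, a known inducer of germ cells, rose in part. BMP ligands act through SMAD1 and SMAD5 on the Id genes, on homeobox genes such as Msx1 and Msx2, and on their own inhibitors. Of 24 BMP targets, 13 rose and 0 fell in Ovol3KO, with a median of 1.13, and 21 rose and 0 fell in WT, with a median of 3.60. On recovered reads these medians were 3.33 and 4.60, and with a pseudocount of 0.25 they were 2.09 and 4.32. Called differences from WT were more negative in Ovol3KO for 16 and more positive for 0, against 11.2% of all tested genes called in that direction. Against the Ovol1KO transition 11 were called more negative and 1 more positive. The Ovol1KO comparison called 1643 of all tested genes (11.4%), 515 more positive in Ovol3KO (3.57%) and 1128 more negative (7.82%). Quantile scaling moved its share of more positive calls to 45% from 31.3%.

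Bmp4, the ligand, had 22.5 and 23.7 TPM in Ovol3KO PGCLC, against 2.46 and 0.717 TPM in EpiLC, and WT had 34 and 22.6 TPM in PGCLC and 1.17 and 1.08 TPM in EpiLC. The Ovol3KO and WT libraries overlapped at both stages, and the difference of -0.45 ± 0.50 was not called. Id1, an inhibitor of basic helix-loop-helix factors, had 298 and 255 TPM in Ovol3KO PGCLC, against 2.48 and 4.25 TPM in EpiLC (log2 difference 6.02 ± 0.31, adjusted p = 3.71e-17). WT had 810.0 and 905 TPM in PGCLC and 1.87 and 1.16 TPM in EpiLC, and the transitions differed by -2.41 ± 0.43 (adjusted p = 3.71e-05). Id2 and Id3, of the same family, rose by 4.07 ± 0.19 and 3.56 ± 0.17 in Ovol3KO, and their differences from WT of -0.38 ± 0.27 and 0.33 ± 0.24 were not called. Id3 had 443 and 480.3 TPM in Ovol3KO PGCLC, against 32.5 and 45.1 TPM in EpiLC. Gata2, a zinc finger factor induced by BMP in mesoderm, had 10.3 and 14.5 TPM in Ovol3KO PGCLC and 0.267 and 0 TPM in EpiLC, against 19.5 and 14.5 TPM in WT PGCLC and 0.719 and 0.222 TPM in WT EpiLC, and its difference between the transitions was not called. Msx1 behaved otherwise, with 19.8 and 15.6 TPM in Ovol3KO PGCLC and 1.87 and 1.89 TPM in EpiLC, against 228 and 196 TPM in WT PGCLC and 0.604 and 1.18 TPM in WT EpiLC. It rose in both lines, and its transitions differed by -4.14 ± 0.32. Msx2 differed by -3.34 ± 0.42. Smad6, an intracellular inhibitor of the pathway, had 9 and 7.94 TPM in Ovol3KO PGCLC and 7.69 and 6.57 TPM in EpiLC, against 36.4 and 32.5 TPM in WT PGCLC and 5.1 and 5.82 TPM in WT EpiLC. It was not called in Ovol3KO and rose in WT, and the difference of -2.24 ± 0.25 was called.

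WNT signalling gave a similar picture, with ligands and several targets induced while Lef1 and Tcf7 were not. Of 24 WNT targets, 13 rose and 1 fell in Ovol3KO, with a median of 1.48, and 20 rose and 2 fell in WT, with a median of 3.71. The difference was called more negative for 18 and more positive for 1, and against Ovol1KO for 13 and 1. Some genes, among them T and Sp5, are on both this list and the streak list. Wnt3, the ligand needed for both the streak and germ cells, had 24.3 and 16.4 TPM in Ovol3KO PGCLC, against 1.53 and 0.357 TPM in EpiLC, and 83.2 and 91.4 TPM in WT PGCLC, against 0.936 and 0.733 TPM in WT EpiLC. Wnt8a, another ligand, had 44.1 and 36.4 TPM in Ovol3KO PGCLC, against 0.476 and 0.314 TPM in EpiLC, and 56.8 and 62.7 TPM in WT PGCLC, against 0 and 1.42 TPM in WT EpiLC. Wnt3 rose less in Ovol3KO (difference -2.09 ± 0.32), whereas the Wnt8a difference of -0.40 ± 0.48 was not called. Wnt5a, a ligand of non-canonical signalling, had 0.165 and 0 TPM in Ovol3KO PGCLC, against 26.2 and 23.6 TPM in WT PGCLC.

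Axin2, a feedback inhibitor and direct target of the pathway, had 27.4 and 21.6 TPM in Ovol3KO PGCLC, against 5.26 and 3.5 TPM in EpiLC, and 96.2 and 89.6 TPM in WT PGCLC, against 2.33 and 1.98 TPM in WT EpiLC. The zinc finger target Sp5 rose by 4.65 ± 0.20 in Ovol3KO and 6.47 ± 0.20 in WT, and the homeobox target Cdx1 by 5.39 ± 0.25 and 7.21 ± 0.25. All 3 were called in both lines and called less positive in Ovol3KO than in WT. Lef1, a DNA-binding partner of beta-catenin, had 10.7 and 8.6 TPM in Ovol3KO PGCLC and 11.7 and 13.9 TPM in EpiLC, while WT had 71.6 and 65.7 TPM in PGCLC and 16 and 16.3 TPM in EpiLC. Tcf7, its relative, had 71.8 and 72.3 TPM in Ovol3KO PGCLC and 95.1 and 88 TPM in EpiLC, while WT had 178 and 170.1 TPM and 74.2 and 79 TPM. Neither was called in Ovol3KO, both rose in WT, and the differences of -2.40 ± 0.26 and -1.52 ± 0.15 were called.

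The streak and mesoderm programme started in Ovol3KO and remained far below WT. Of 31 streak and nascent mesoderm genes, 15 rose and 1 fell in Ovol3KO, with a median of 0.78, while 24 rose and 0 fell in WT, with a median of 4.49. Against WT, the transition was called more negative in Ovol3KO for 25 and more positive for 1, with a median of -2.38, and against Ovol1KO for 21 and 1, with a median of -1.70. The size of the Ovol3KO median depended on the processing. It was 3.38 on recovered reads (WT 6.69), 1.46 with a pseudocount of 0.25 (WT 5.58), 1.51 over genes of at least 5 TPM (WT 4.71) and 1.47 without PGCLC replicate 2. The median difference between the transitions was -2.13 to -2.76 under the same settings. The median of Ovol3KO minus WT over the list was -2.37 in PGCLC and 0.00 in EpiLC. The summed level of 6 mesoderm markers was 61.7 to 158.8 TPM in Ovol3KO PGCLC and 1.18 to 2.58 TPM in Ovol3KO EpiLC. In WT it was 1532 to 1579 TPM in PGCLC and 1.31 to 1.63 TPM in EpiLC. In PGCLC of both lines most of this sum was T, described next.

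T (brachyury), the T-box factor of the streak and an activator of the germ cell genes, had 154 and 59.6 TPM in Ovol3KO PGCLC, against 0.353 and 0 TPM in EpiLC. WT PGCLC had 1158 and 1279 TPM and WT EpiLC 0.57 and 0.352 TPM. T rose the most of all genes of at least 10 TPM in the Ovol3KO transition (6.38 ± 0.26, adjusted p = 2.86e-20) and its transition differed from that in WT by -3.33 ± 0.37. A fit on recovered reads put that last difference at -1.37 and did not call it. Replicate 1 of the Ovol3KO PGCLC libraries held more T than replicate 2, and it was the higher one for 14 of the 15 streak genes that rose, whereas it was the higher one for 47.6% of all tested genes. Mixl1, a homeobox factor of the streak, had 12.8 and 5.68 TPM in Ovol3KO PGCLC, against 0.884 and 0.902 TPM in EpiLC, and 287 and 248 TPM in WT PGCLC, against 1.53 and 1.31 TPM in WT EpiLC. Fgf8, a growth factor of the streak, had 53.8 and 32.7 TPM in Ovol3KO PGCLC, against 0.219 and 0.843 TPM in EpiLC, and Evx1, a homeobox gene of the posterior streak, had 23.4 and 16.1 TPM, against 0 and 0.0552 TPM. All 3 rose in Ovol3KO and stayed below WT PGCLC, which had 185 and 253 TPM of Fgf8 and 178 and 174 TPM of Evx1.

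Msgn1, Mesp1 and Hand1, used by mesoderm that has left the streak, were at or near 0 in Ovol3KO PGCLC. Msgn1, a factor of presomitic mesoderm, was listed at 0 in both Ovol3KO PGCLC libraries and had 0.51 and 0 TPM in EpiLC, while it had 175 and 105 TPM in WT PGCLC and was listed at 0 in both WT EpiLC libraries. Mesp1, a factor of cardiac and cranial mesoderm, had 1.79 and 0 TPM in Ovol3KO PGCLC and 87.2 and 51.1 TPM in WT PGCLC, and was listed at 0 in all EpiLC libraries of both lines. Hand1, a factor of extraembryonic and lateral mesoderm, had 2.41 and 1.29 TPM in Ovol3KO PGCLC and 141 and 80.9 TPM in WT PGCLC. For all 3 genes the Ovol3KO and WT libraries of PGCLC did not overlap, and for Hand1 the fit on recovered reads gave -5.99 for the difference between the transitions with no call. Eomes, a T-box factor of the early streak, did not share the pattern. It had 49.3 and 39 TPM in Ovol3KO PGCLC, against 2.41 and 2.14 TPM in EpiLC, and 43.7 and 61.7 TPM in WT PGCLC, against 2.82 and 2.39 TPM in WT EpiLC, with Ovol3KO and WT libraries overlapping in PGCLC. Of 23 genes of lateral and extraembryonic mesoderm, 7 rose and 0 fell in Ovol3KO, with a median of 0.31 that was 1.37 on recovered reads and 0.59 with a pseudocount of 0.25, and 16 rose and 0 fell in WT. Called differences from WT were more negative for 12 and more positive for 0. Tagln, an actin-binding protein, rose by 2.18 ± 0.22, and Ahnak, a large scaffold protein, by 1.79 ± 0.32.

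Posterior patterning genes were likewise induced in part. Of 35 Hox and Cdx genes, 5 rose and 0 fell in Ovol3KO, with a median of 0.04, and 14 rose and 0 fell in WT, with a median of 0.44. On recovered reads the medians were 1.15 and 1.73. The difference was called more negative for 14 and more positive for 0. Cdx2, a caudal homeobox factor, had 7.63 and 7.58 TPM in Ovol3KO PGCLC, against 0.202 and 0 TPM in EpiLC, and 193 and 169.5 TPM in WT PGCLC, against 0 and 0.224 TPM in WT EpiLC. The difference between its transitions was -4.39 ± 0.46, and -3.37 without a call in the fit on recovered reads. Hoxb1 had 5.16 and 1.57 TPM in Ovol3KO PGCLC and 71.4 and 64.8 TPM in WT PGCLC, and was listed at 0 in all EpiLC libraries of both lines. Of 16 endoderm and anterior streak genes, 2 rose and 2 fell in Ovol3KO, with a median of 0.26, against 6 and 1 in WT. The 2 that rose were Trh (4.03 ± 0.17), the gene of thyrotropin-releasing hormone, and Gsc, a homeobox gene of the organiser with 1.74 and 2.08 TPM in Ovol3KO PGCLC and a listed level of 0 in both EpiLC libraries. The BMP antagonist Chrd fell by 1.38, and the other fall was that of Otx2.

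Genes of Nodal signalling were called in both directions against WT. Nodal patterns the epiblast, and Lefty1 and Lefty2 are its targets and secreted inhibitors. Of 21 genes, 10 rose and 0 fell in Ovol3KO, with a median of 0.76, and 7 rose and 3 fell in WT, with a median of 0.77. On recovered reads these medians were 1.19 and 0.73. Against WT, the transition was called more positive for 6 and more negative for 4, with a median difference of -0.34. Against Ovol1KO 3 were called more positive and 4 more negative, with a median of -0.38. Over all tested genes 4.9% were called more positive and 11.2% more negative. Nodal had 88.9 and 85.4 TPM in Ovol3KO PGCLC, against 28.2 and 35.3 TPM in EpiLC, and 77.2 and 112 TPM in WT PGCLC, against 45.9 and 48.6 TPM in WT EpiLC. Lefty1 had 196 and 245 TPM in Ovol3KO PGCLC, against 11.9 and 30.9 TPM in EpiLC, and 48.6 and 86.3 TPM in WT PGCLC, against 154 and 138 TPM in WT EpiLC. Lefty1 rose in Ovol3KO and fell in WT, and the transitions differed by 4.60 ± 0.43 (adjusted p = 7.04e-10), with lower EpiLC and higher PGCLC levels in Ovol3KO. Lefty2 rose by 2.67 ± 0.22 and was called more positive than in WT. Fst, an activin inhibitor, rose by 3.47 ± 0.24 in Ovol3KO and 4.66 ± 0.24 in WT.

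Several FGF-ERK feedback genes fell in the Ovol3KO transition, and Dusp6 moved the other way in WT. ERK activity induces its own inhibitors of the Dusp and Spry families, so these genes are used as readouts of the pathway. Of 20 genes, 3 rose and 4 fell in Ovol3KO, with a median of -0.09, and 7 rose and 3 fell in WT, with a median of 0.56. The sign of the Ovol3KO median was not stable, with 0.14 without EpiLC replicate 1 and 0.03 without PGCLC replicate 1. Called differences from WT were more negative for 7 and more positive for 2. Dusp6, the ERK phosphatase, fell to 113 and 100.3 TPM in Ovol3KO PGCLC, against 371 and 299.9 TPM in EpiLC, while WT had 379 and 329.8 TPM in PGCLC, against 128 and 151 TPM in EpiLC. The libraries of the 2 lines thus moved in opposite directions, with a difference of -2.98 ± 0.19 (adjusted p = 2.23e-14). Dusp4, a related phosphatase, fell to 43.5 and 37.2 TPM in Ovol3KO PGCLC, against 208 and 173 TPM in EpiLC, and was not called in WT, which had 109 and 91.4 TPM in PGCLC and 69.4 and 78.4 TPM in EpiLC. In EpiLC the Ovol3KO libraries held more Dusp6 and Dusp4 than the WT libraries. Spry1, another feedback inhibitor, fell in both lines, with log2 differences of -2.01 in Ovol3KO and -1.45 in WT. Ier3, an early response gene, fell by 2.01 in Ovol3KO. Fos, an immediate early target, rose to 105 and 46.2 TPM in Ovol3KO PGCLC, against 9.04 and 4.62 TPM in EpiLC, and to 526 and 666 TPM in WT PGCLC, against 1.11 and 2.12 TPM in EpiLC. Of 19 LIF-STAT3 targets, 11 rose and 2 fell in Ovol3KO, with a median of 1.30, against 13 and 2 in WT, with a median of 2.24. The difference was called more negative for 6 of them and more positive for 1. The median of Ovol3KO minus WT over this list was 0.23 log2 units in PGCLC and 0.80 in EpiLC. The list thus lay no lower in Ovol3KO PGCLC than in WT PGCLC, and started higher in Ovol3KO EpiLC. Tfcp2l1, a naive factor downstream of LIF, rose by 2.95 ± 0.22.

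**Figure D4:**
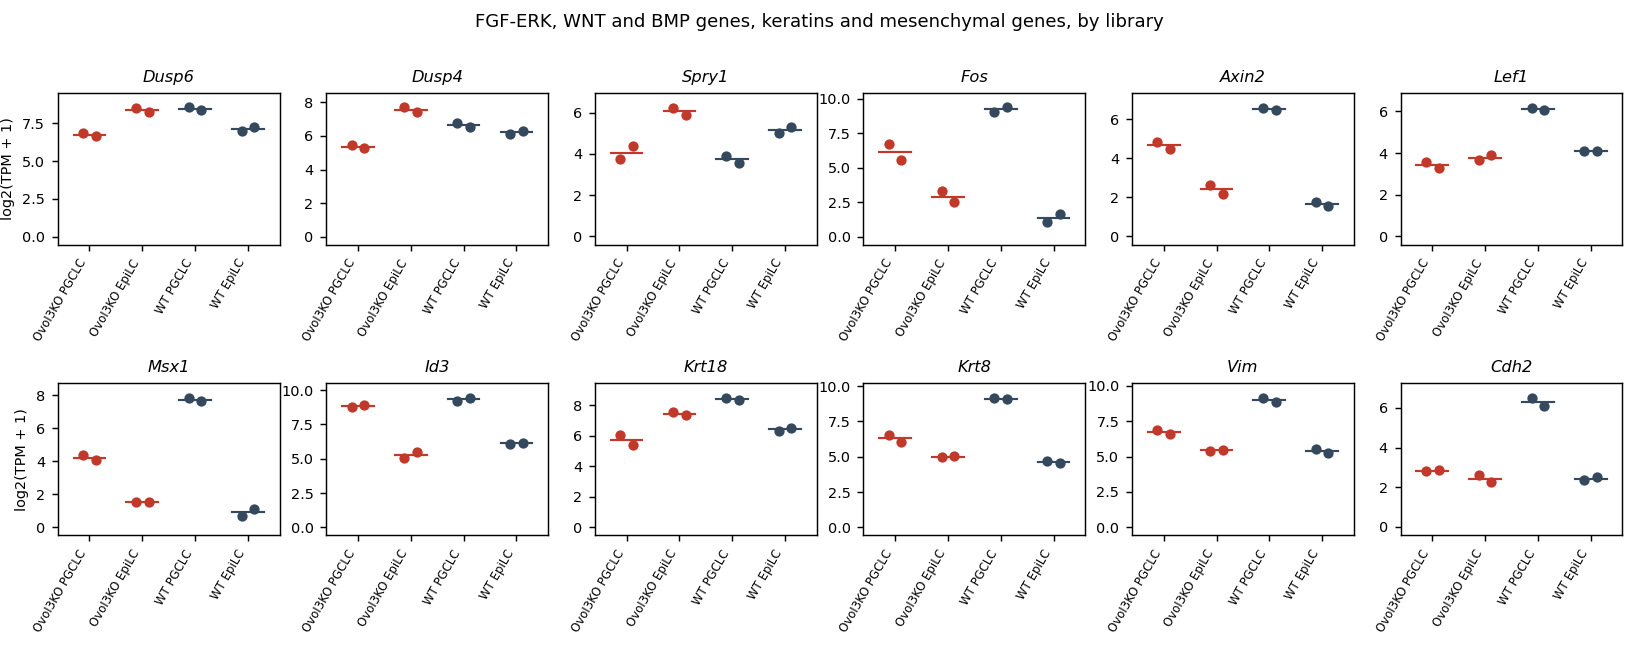
Levels of 12 genes of FGF-ERK, WNT and BMP signalling, of the keratins and of the mesenchyme as log2(TPM + 1) in PGCLC and EpiLC of Ovol3KO (red) and WT (dark grey); points are libraries and lines the mean of 2 libraries. Dusp6 and Krt18 are lower in Ovol3KO PGCLC than in Ovol3KO EpiLC and higher in WT PGCLC than in WT EpiLC, and Id3 is high in PGCLC of both lines.

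The plot of signalling and cell shape genes also sets keratins beside mesenchymal genes. Krt18 and Krt8 encode the partner keratins of simple epithelia. Krt18 fell to 64.7 and 41.2 TPM in Ovol3KO PGCLC, against 182 and 164 TPM in EpiLC, while WT rose to 355 and 314 TPM in PGCLC, against 77 and 90.9 TPM in EpiLC (difference -3.71 ± 0.31, adjusted p = 2.3e-11). Krt8 rose in both lines, to 93.8 and 64.9 TPM in Ovol3KO PGCLC, against 30 and 32.8 TPM in EpiLC, and to 580.2 and 530.4 TPM in WT PGCLC, against 24.5 and 22.4 TPM in EpiLC. The partners thus went apart in Ovol3KO and together in WT. Krt19 had 17.4 and 7.1 TPM in Ovol3KO PGCLC and 153 and 114 TPM in WT PGCLC, and its transitions differed by -4.68 ± 0.43. Of 37 epithelial genes, 6 rose and 9 fell in Ovol3KO, with a median of -0.34, against 9 and 6 in WT, with a median of -0.05. Dsp, the desmosome protein desmoplakin, rose by 2.72 ± 0.21, and Grhl3, a factor of surface epithelia, by 2.67 ± 0.24. Crb3, of the apical polarity complex, fell by 1.75. Cdh1, the gene of E-cadherin, had 355 and 348 TPM in Ovol3KO PGCLC and 714 and 631 TPM in EpiLC, a log2 difference of -0.93 ± 0.09 that missed the size threshold and passed it, at -1.02, without EpiLC replicate 2. Its difference from WT was not called.

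Of 24 genes of the epithelial to mesenchymal transition, 3 rose and 1 fell in Ovol3KO, with a median of 0.06, while 15 rose and 0 fell in WT, with a median of 1.36. Over all tested genes 6.06% rose and 6.76% fell in Ovol3KO, so 3 of 24 is no smaller a share. The Ovol3KO median was 0.63 on recovered reads, 0.36 over genes of at least 5 TPM, 0.20 with a pseudocount of 0.25, -0.02 without PGCLC replicate 1 and 0.27 without PGCLC replicate 2. Against WT, the transition was called more negative for 14 and more positive for 1. Vim, the intermediate filament of mesenchyme, rose to 114 and 95.3 TPM in Ovol3KO PGCLC, against 41.9 and 43.1 TPM in EpiLC, and to 570.1 and 452 TPM in WT PGCLC, against 44.2 and 36.8 TPM in EpiLC. Cdh2, the gene of N-cadherin, had 5.96 and 6.3 TPM in Ovol3KO PGCLC and 5.23 and 3.72 TPM in EpiLC, while WT rose to 89.3 and 66.7 TPM in PGCLC, against 4.14 and 4.63 TPM in EpiLC. Both were called less positive in Ovol3KO, Vim with a difference of -2.35 ± 0.13 and Cdh2 with -3.47 ± 0.29, and Cdh2 was not called in Ovol3KO itself. The membrane protease Mmp14 and the growth factor Tgfb1 rose by 1.17 ± 0.16 and 1.08 ± 0.27. Snai3, a Snail family member, fell by 1.30, a call that was lost at -0.87 without PGCLC replicate 2.

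Many cholesterol synthesis genes fell in the Ovol3KO transition, as they did in WT. These enzymes are controlled together by SREBP factors, which work with the CCAAT-binding factor NF-Y. Of 25 genes, 11 fell and 1 rose in Ovol3KO, with a median of -0.84, and 19 fell and 1 rose in WT, with a median of -1.46. The difference was called for 1 gene in each direction. The sterol regulatory element stood in 0 of 17 promoters of the list, against 0.0458% of the promoters of all tested genes. The word TCACNCCAC stood in 1 of 17 (5.88%), against 1.13%. CCAAT, read on both strands, stood in 15 of 17 promoters of the list (88.2%), against 39% of the promoters of all tested genes. Most promoters of genes not called held it, so the word does not set called genes apart. It stood in 6 of the 7 promoters of genes called in Ovol3KO, among them that of Ebp, which rose. Of these, 2 are printed because their genes are among the 4 largest falls of the list, with the word in capitals, here read as its reverse complement: Tm7sf2 at chr19:6067801-6068100 (minus strand), beginning 47 bases before the start, and Lss at chr10:76531355-76531654 (plus strand), beginning 62 bases before it.
Tm7sf2: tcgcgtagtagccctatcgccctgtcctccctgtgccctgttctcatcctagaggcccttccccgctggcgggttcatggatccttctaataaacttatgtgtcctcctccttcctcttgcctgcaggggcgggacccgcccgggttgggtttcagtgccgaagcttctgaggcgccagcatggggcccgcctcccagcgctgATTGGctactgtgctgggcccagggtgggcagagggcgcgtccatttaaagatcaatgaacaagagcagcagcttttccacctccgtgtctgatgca
Lss: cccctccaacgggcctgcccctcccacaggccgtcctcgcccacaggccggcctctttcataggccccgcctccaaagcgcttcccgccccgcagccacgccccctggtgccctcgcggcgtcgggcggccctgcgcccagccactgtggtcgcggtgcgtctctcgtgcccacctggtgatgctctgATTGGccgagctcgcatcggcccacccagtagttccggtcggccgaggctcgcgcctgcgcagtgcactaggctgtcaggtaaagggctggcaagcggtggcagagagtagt
Tm7sf2, a sterol reductase, had 10.7 and 8.25 TPM in Ovol3KO PGCLC, against 50 and 55 TPM in EpiLC, and 16.5 and 20.6 TPM in WT PGCLC, against 44.5 and 52.1 TPM in WT EpiLC. Its log2 difference of -2.36 was larger in size than that of WT, with a called difference of -1.03 ± 0.22, which was not called under quantile scaling (-0.80), on recovered reads (-0.85) or without 1 of 4 libraries (-0.86 to -0.96). Lss, lanosterol synthase, had 34.7 and 32.5 TPM in Ovol3KO PGCLC, against 127 and 118 TPM in EpiLC. Mvd, a mevalonate pathway enzyme, fell by 1.66. The differences from WT of Lss and Mvd were not called. Ebp, a sterol isomerase, was the member that rose, to 52.6 and 47.1 TPM in Ovol3KO PGCLC, against 15.9 and 15.8 TPM in EpiLC.

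Among the 10 largest rises of the Ovol3KO transition at 10 TPM or more, only Aqp3, a water and glycerol channel, has not been described above. It had 64.2 and 56.3 TPM in Ovol3KO PGCLC, against 0.574 and 0 TPM in EpiLC, and 17.2 and 23.4 TPM in WT PGCLC, against 0 and 0.136 TPM in WT EpiLC. Of the 10 largest falls, the secreted protein fetuin-B of Fetub (-3.96), the slow muscle troponin Tnnt1 (-3.81), the transcription factor gene Mef2b (-3.65), Ubap1l (-3.53) and the metallothionein Mt3 (-3.47) also fell in WT, with no called difference between the transitions. Mef2b and its read-through entry 2310045n01rik-mef2b (-3.55) share reads and are uncertain as separate genes. Nupr1, a stress-induced chromatin protein, fell to 26 and 19.5 TPM in Ovol3KO PGCLC, against 319 and 265 TPM in EpiLC. Vegfa, the vascular growth factor, fell to 5.62 and 4.29 TPM, against 68.7 and 54.2 TPM, and Gadd45g, a stress sensor, to 4.12 and 4.52 TPM, against 59.6 and 48.2 TPM. Gadd45g fell further in Ovol3KO than in WT (difference -1.68 ± 0.55), and that call was lost at -1.53 without EpiLC replicate 1 and at -1.83 with a pseudocount of 0.25.

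The largest negative differences from WT included a set of epidermal genes. Sprr2a3, a small proline-rich protein of the cornified envelope, had 1.13 and 1.91 TPM in Ovol3KO PGCLC and was listed at 0 in both Ovol3KO EpiLC libraries, against 231 and 185 TPM in WT PGCLC. Sprr2a1 and Sprr2a2 carry identical values, 0.645 and 0.458 TPM in Ovol3KO PGCLC and 110.5 and 82.6 TPM in WT PGCLC, and near-identical copies of this family may share reads, so the members are uncertain as separate genes. In the fit on recovered reads the differences of Sprr2a3 and Sprr2a1 were -6.05 and -5.21 with no call. Sprr2b had 0.344 and 0 TPM in Ovol3KO PGCLC and 71.7 and 54.9 TPM in WT PGCLC. Chst7, a sulfotransferase, fell in Ovol3KO to 1.21 and 1.11 TPM in PGCLC, against 5.07 and 3.83 TPM in EpiLC, and rose in WT to 34.2 and 34.7 TPM, against 2.39 and 2.57 TPM.

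Set against ESC of the same line, Ovol3KO PGCLC differed in genes of both the streak and the formative state. T (5.56 ± 0.26), Wnt8a (5.36 ± 0.34), Vrtn (5.18 ± 0.22), the kinase Pim2 (5.01 ± 0.26) and the carbonic anhydrase Car4 (5.0 ± 0.19) had the largest positive differences, and Fetub (-4.31), Lrrc31 (-3.82), the lysosomal protein Laptm5 (-3.81), the glutathione peroxidase Gpx2 (-3.78) and the melanocyte factor Mitf (-3.64) the largest negative ones. Car4 had 0.723 and 0.627 TPM in ESC, 294 and 301 TPM in EpiLC and 47.7 and 58.2 TPM in PGCLC, so its PGCLC level lay between the other stages. Of 26 formative genes, 18 were called higher in PGCLC than in ESC and 0 lower, with a median of 2.02. Wnt8a, also counted as a WNT gene, is among the 18. Of the germ cell specification genes 4 were called higher and 4 lower, since several of them are active in ESC as well. Prdm14 had 47.3 and 42.7 TPM in Ovol3KO ESC and Prdm1 24.8 and 27.2 TPM, both above PGCLC, whereas Nanos3 had 3.22 and 1.12 TPM in ESC and was higher in PGCLC by 2.24 ± 0.46. Of the later germ line genes 10 of 21 were called higher in PGCLC than in ESC and 0 lower.

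**Figure D5:**
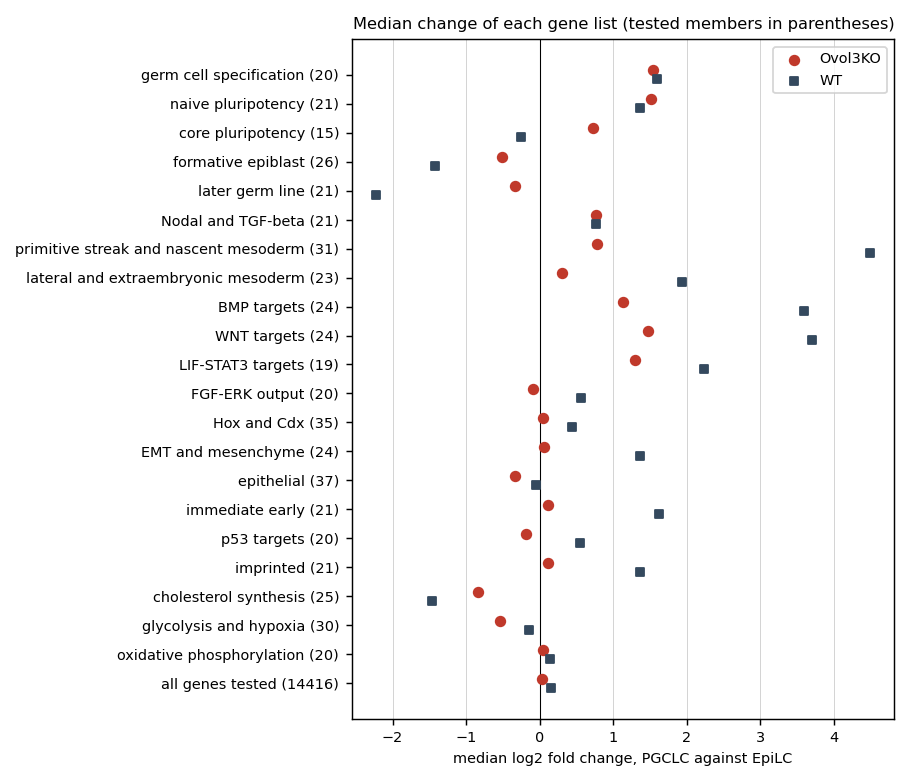
Median log2 fold change between PGCLC and EpiLC over the tested members of each gene list (number in parentheses) in Ovol3KO (red circles) and WT (dark squares). The medians of germ cell specification genes meet at 1.54 and 1.59, while those of streak genes are 0.78 in Ovol3KO and 4.49 in WT. On recovered reads the streak medians were 3.38 and 6.69, and the Ovol3KO one was 1.47 without PGCLC replicate 2.

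The plot of list medians puts these groups side by side. The streak, BMP and WNT lists lie lower in Ovol3KO than in WT, and oxidative phosphorylation, with 0 of 20 genes called in either line, is near 0 in both. Lists share members, such as Tfap2c in the germ cell specification and BMP lists, so their medians are not separate evidence.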

How the data were processed

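Messenger RNA was measured in 54 libraries of mouse ESC, EpiLC and day 2 PGCLC, of which those labelled Ovol3KO, WT and Ovol1KO are described. The labels' protocols name the RNeasy Micro kit, poly(A) selection and the NEBNext Ultra Directional kit with 12 PCR cycles. Per the submitters' processing notes, the authors used the mm10 build, HISAT2, featureCounts and edgeR, and neither those notes nor the labels give versions, annotation or strand setting. The authors deposited TPM values with the same sum in every library, and such values are relative within a library. Whole reads were recovered from the TPM for 17973 of 20036 genes, those above 0 in a library (tolerance 0.01 read), and depth was then 2.16 to 26.73 M reads with a median of 8.65 M.

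Log2(TPM + 1) was tested with limma 3.58.1 (R 4.3.3, options trend and robust) in 1 fit of all 54 libraries in 27 groups (27 residual degrees of freedom). The 14416 genes at 1 TPM or more in 2 or more libraries were tested. P-values were adjusted by the Benjamini-Hochberg method over all tested genes. The 2 Ovol2b-Tg EpiLC libraries had a chi-square per degree of freedom of 1.05, where 1 is counting noise alone, and may be 1 sample. They enter only the estimate of spread and were left out in an added check. The pairs of Ovol3KO gave 2.41 in PGCLC, 6.47 in EpiLC and 1.76 in ESC. The procedure was run before use on simulated data, in which every gene and group had the same spread beyond counting noise. That run therefore does not show how the test behaves at the spread of these libraries. Alternatives tried were another pseudocount (0.25), no filter on low values, a TPM of at least 5, quantile scaling, a fit of only the libraries compared, a replicate block, limma-voom on the recovered reads and leaving out each library.

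The 32 gene lists (642 genes, 584 tested) and all tests were chosen with earlier results of these data known. The genes named were a fixed set of Ovol, germ cell, pluripotency, streak and cadherin genes, the 10 largest rises and falls of at least 10 TPM in the transition and in its difference from WT (5 each against ESC), and from each list up to 4 called members with the largest changes. A few genes that this rule names are not reported here. Named after their values were seen were Tcl1, Sox15, Tdrd5, Fut4, Ifitm3, Fkbp6, Ddx4, Dazl, Dmrt1, Nodal, Dppa2, Dppa4, Gdf3, Pou3f1, Msx1, Msx2, Id3, Smad6, Lef1, Tcf7, Axin2, Dusp6, Krt8 and Ebp. Promoters were searched on both strands for 18 words in 7 lists. Over the 10928 promoters of tested genes, CACGTG stood in 10.2%, TCACGTGA (which holds CACGTG) in 1.78%, TCACNCCAC in 1.13%, CTTTGAA in 3.53%, CTTTGATC in 0.668%, CTTTGANG in 3.31%, GGCGCC in 21.3%, GTCTAGAC in 0.247%, CCAAT in 39%, TCCTGGAA in 2.31%, TTCNNNGAA in 6.8%, TGACTCA in 3.6%, AACCGG in 10.7% and CCGTTA in 3.57%. Of the longer words, the sterol regulatory element stood in 0.0458%, a BMP response element with GGCGCC in 0.101%, and the CArG box in 0.0366% in an exact form and in 86.9% in a loose one. The results describe CACGTG in later germ line promoters, and CCAAT, the sterol regulatory element and TCACNCCAC in cholesterol synthesis promoters.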

Additional observations from a re-analysis of the deposited data

Results flagged for a closer look

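Groups held 2 libraries each, so no single library was tested as standing apart. The results below were marked because the transition from EpiLC to PGCLC differed between Ovol3KO and WT by a test of that difference (limma, adjusted p under 0.05 and a log2 difference of at least 1). Values are the log2 change in Ovol3KO minus the log2 change in WT, and for genes at 0 in a group they depend on the 1 added to the TPM. Among genes of pluripotency and the formative state, the difference was 5.25 for Foxd3, 4.60 for Lefty1, 3.97 for Eras, 3.73 for Dnmt3l, 3.44 for Rhox5, 3.42 for Rex2, 3.40 for Dppa2, 2.93 for Gdf3, 2.46 for Dppa4, 2.04 for Fgf5, 1.62 for Pou3f1, 1.60 for Zfp42, 1.52 for Dnmt3b and 1.33 for Klf2. Among germ line genes it was 4.28 for Rpl10l, 2.76 for Hormad1, 2.69 for Fkbp6, 2.54 for Dppa3, 2.43 for Dmrt1, 2.20 for Sox15, 2.10 for Dazl and 1.80 for Tcl1. Other positive values were 3.75 for Zfp534, 3.52 for Enox1 and 3.49 for Slc27a2. All of these were more positive in Ovol3KO, by a gain or a smaller fall.

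Streak, mesoderm and posterior genes were more negative, at -7.39 for Msgn1, -5.46 for Hand1, -5.34 for Mesp1, -4.45 for Mixl1, -4.39 for Cdx2, -4.12 for Hoxb1 and -3.33 for T. Signalling genes gave -4.63 for Wnt5a, -4.14 for Msx1, -3.34 for Msx2, -2.98 for Dusp6, -2.41 for Id1, -2.40 for Lef1, -2.24 for Smad6, -2.09 for Wnt3 and -1.52 for Tcf7. Genes of cell shape and epithelia gave -6.0 for Sprr2a3, -5.94 for each of Sprr2a2 and Sprr2a1, -5.78 for Sprr2b, -4.68 for Krt19, -3.71 for Krt18, -3.47 for Cdh2 and -2.35 for Vim. The remaining values were -4.67 for Chst7, -1.68 for Gadd45g and -1.03 for Tm7sf2. Depth and the higher streak genes of 1 Ovol3KO PGCLC library stand in the results, and their part in these values was not tested.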

How the results depend on the processing

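The number of genes called between PGCLC and EpiLC in Ovol3KO was 1849, and 3080 in a fit of limma-voom on the recovered reads, of which 1814 were shared. With that exception the 5 counts of called genes stayed within 1.5 times their value under every alternative run. Leaving out 1 library each time gave 1762 to 2077 genes for Ovol3KO PGCLC against EpiLC, 2992 to 3201 for WT PGCLC against EpiLC, 2061 to 2535 for the difference of the Ovol3KO transition from WT, 1395 to 1915 for its difference from Ovol1KO and 2043 to 2326 for Ovol3KO PGCLC against ESC. A group left with 1 library was assumed to vary like the other groups. Same-numbered libraries did not deviate together (correlations of -0.02 to 0.01), so the numbers were not taken as pairs, and a fit with the replicate number as a block called 1851, 3040, 2321, 1632 and 2129 genes in the same order. Without both Ovol2b-Tg EpiLC libraries, chosen after seeing the data, the counts were 1847, 3041, 2309, 1634 and 2127.

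Among 249 results for named genes, 18 settings reversed a sign, all of differences that were not called. In the difference from WT, Pou5f1 was at -0.15, Nanos3 at 0.05 and Eomes at 0.08 under quantile scaling, and Eomes at 0.01, Klf4 at -0.10 and Wnt8a at 0.43 on recovered reads. Without Ovol3KO PGCLC replicate 2, Nanos3 was at 0.09 and Eomes at 0.07. Without Ovol3KO EpiLC replicate 1, Esrrb was at 0.13 and Bmp4 at 0.05, and without replicate 2 Nanos3 was at 0.23. Without WT EpiLC replicate 2, Nanos3 was at 0.09 and Tfap2c at -0.01. Without WT EpiLC replicate 1 Wnt8a was at 0.24, and without WT PGCLC replicate 2 Eomes was at 0.14. Against ESC, Ovol3 was at 0.03 on recovered reads, Pou5f1 at -0.12 under quantile scaling and Cdh2 at -0.05 without ESC replicate 2. Leaving out 1 library each time gave, in the difference from WT, -0.01 to 1.07 for Tfap2c, -0.49 to 0.23 for Nanos3, -0.35 to 0.14 for Eomes, -0.60 to 0.13 for Esrrb, -0.96 to 0.05 for Bmp4 and -1.04 to 0.24 for Wnt8a, and -0.05 to 0.36 for Cdh2 against ESC. Of the list medians in Ovol3KO not given with their range in the results, that of DNA methylation genes (-0.21) was -0.49 without EpiLC replicate 2 and -0.08 without replicate 1, and that of endoderm genes (0.26) was 0.11 without PGCLC replicate 2, 0.04 with no filter and 0.39 with a pseudocount of 0.25. The median of immediate early genes (0.11) was -0.18 without PGCLC replicate 1 and -0.01 without EpiLC replicate 2, that of p53 targets (-0.18) was -0.01 without EpiLC replicate 1, that of imprinted genes (0.12) was 0.01 to 0.24 on leaving out a library, and that of endothelium and blood genes (-0.54) was -1.10 on recovered reads and -0.21 over genes of at least 5 TPM. The cause of these changes was not tested. Libraries of 2.58 and 2.72 M reads limit scarce genes in Ovol3KO PGCLC and ESC.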

Other observations

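Other gene groups were also read in the transition from EpiLC to PGCLC within Ovol3KO. Over all tested genes 6.06% rose and 6.76% fell in Ovol3KO, and 13.5% rose and 7.62% fell in WT. In the difference 4.9% were called more positive in Ovol3KO and 11.2% more negative. Counts of this section that lie near these shares are no result about a gene group. Immediate early genes, the first to respond to growth factors and stress, had 5 rises and 2 falls among 21 genes in Ovol3KO, with a median of 0.11, and 15 rises and 1 fall in WT, with a median of 1.63. The test of the difference called 15 more negative in Ovol3KO and 1 more positive. Atf3, a stress-induced factor, fell to 9.02 and 2.47 TPM in Ovol3KO PGCLC, against 46.2 and 44.9 TPM in EpiLC, while WT had 14.3 and 40 TPM in PGCLC and 33.3 and 27.9 TPM in EpiLC. Fosb, a partner of Jun proteins, had 27.8 and 3.66 TPM in Ovol3KO PGCLC, against 4.36 and 0.967 TPM in EpiLC, and its rise of 1.84 ± 0.59 was lost at 0.52 without PGCLC replicate 1 and at 1.11 without EpiLC replicate 2. Among 20 p53 targets 1 rose and 3 fell in Ovol3KO, with a median of -0.18, and 8 rose and 2 fell in WT, with a median of 0.55. The secreted stress factor Gdf15 fell to 4 and 8.25 TPM in Ovol3KO PGCLC, against 61.2 and 48.6 TPM in EpiLC, and Perp, a desmosome-associated membrane protein, rose to 51.9 and 49.2 TPM, against 8.67 and 7.85 TPM. Bbc3, the cell death gene Puma, fell to 27.6 and 23.5 TPM in Ovol3KO PGCLC, against 74.6 and 55.8 TPM in EpiLC, and had 37.1 and 44.3 TPM in WT PGCLC, against 25.4 and 31.9 TPM in WT EpiLC.

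Imprinted genes had 4 rises and 1 fall among 21 in Ovol3KO, with a median of 0.12, and 14 rises and 2 falls in WT, with a median of 1.37. Peg10, a retrotransposon-derived gene of the placenta, rose to 157 and 116 TPM in Ovol3KO PGCLC, against 25.8 and 17.4 TPM in EpiLC, and to 752 and 602 TPM in WT PGCLC, against 10.4 and 12.9 TPM in EpiLC. Mest fell to 69.6 and 87.8 TPM in Ovol3KO PGCLC, against 232 and 246 TPM in EpiLC. Among 30 genes of glycolysis and hypoxia 1 rose and 5 fell in Ovol3KO. The glucose transporter Slc2a3 rose to 536 and 518 TPM in Ovol3KO PGCLC, against 145 and 106 TPM in EpiLC, and the mitophagy receptor Bnip3 fell to 10.4 and 15.3 TPM, against 47.7 and 46.6 TPM. Of 26 collagen, laminin and integrin genes 1 rose and 3 fell in Ovol3KO, against 9 and 3 in WT. The integrin Itga6 fell to 41.3 and 53.2 TPM in Ovol3KO PGCLC, against 117 and 99.7 TPM in EpiLC. Of 16 genes of endothelium and blood 0 rose and 6 fell in Ovol3KO, with a median of -0.54. Flt4, a receptor of lymphatic vessels, had 0.639 and 0.836 TPM in Ovol3KO PGCLC, against 6.68 and 3.75 TPM in EpiLC. Among 25 cell cycle genes 1 rose and 1 fell: the cyclin Ccnd2 rose to 27.3 and 19.2 TPM in Ovol3KO PGCLC, against 8.49 and 5.94 TPM in EpiLC, and the inhibitor Cdkn2a fell to 10.3 and 16.5 TPM, against 52.9 and 47.1 TPM. Dll1, a Notch ligand, fell to 0.702 and 0.949 TPM in Ovol3KO PGCLC, against 14.4 and 6.58 TPM in EpiLC, as 1 of 19 Notch and segmentation genes, of which 2 rose. Of 16 trophoblast genes 8 rose and 2 fell in Ovol3KO, with Tfap2c, Eomes, Cdx2 and Peg10 the largest changes, each of which is also used in other tissues described here. Among 16 neural genes 2 rose and 2 fell, and among 14 fibroblast and feeder genes 2 rose and 2 fell, of which Thy1, a surface glycoprotein, fell to 5.13 and 6.56 TPM in Ovol3KO PGCLC, against 27.8 and 32.7 TPM in EpiLC. Of 9 genes on a list of early cleavage-stage expression Prdm14, which is also a germ cell gene, was the 1 that rose.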
